A study of Anser cygnoides with 18 samples.

Results

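Of the 1701 long non-coding RNA (lncRNA) loci measured in goose liver and adipose tissue, 487 overlapped a protein-coding gene. They were chosen by position alone: a locus was taken when at least 1 bp of it lay under a gene line of protein-coding biotype in the deposited annotation of the Anser cygnoides assembly, on either strand. Of the remaining loci, 571 lay within 10 kb of such a gene and 643 farther away. The libraries came from liver (L), abdominal adipose (AA) and subcutaneous adipose (SA) of 3 high-intake and 3 control geese, and samples with the same number (T1 to T3, C1 to C3) came from the same bird. All birds were male Tianfu meat geese, a cross of Anser anser and Anser cygnoides, killed at 145 days of age after a night without feed. High-intake geese were force fed 2 to 4 meals a day for 18 days, with larger meals each day, whereas control geese ate the same diet freely.

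LncRNAs that lie within protein-coding genes can be transcribed with the gene or against it, and they often use its chromatin or its promoter. Some are known to act on the gene that holds them, through transcription across it, through chromatin or through splicing, while many others have no known function. In birds the liver is the main site of fatty acid synthesis and adipose tissue chiefly stores what the liver exports.

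The values are FPKM (mapped fragments scaled to the length of the transcript and to the size of the library), so levels can be compared between transcripts, but the number of reads behind a value is unknown. Libraries were made from total RNA after removal of ribosomal RNA, and the lncRNA table gives no strand. Reads of a lncRNA and reads of the unspliced transcript of the gene around it cannot be told apart in these values. The summed mRNA FPKM ran between 107522 in C2-SA and 438339 in T1-L, and C2-SA stood apart from the rest. In C2-SA 95.3% of the 487 lncRNAs were at FPKM 0.1 or more, against 46.6% to 78.0% in the livers and abdominal adipose libraries. The other subcutaneous libraries ran from 68.4% in T3-SA to 84.6% in C3-SA. The paper proposes that C2-SA was partly contaminated with tissue such as skin, which was not tested here. Hepatocyte markers (9 of 12 measured) summed to between 13545 and 27492 FPKM in livers and to at most 2881 in adipose libraries, although ALB was listed at 0 in all control livers. Adipocyte markers (5 of 9 measured) summed to at least 716 FPKM in adipose libraries and at most 374 in livers. In bulk tissue, fewer cells of a type and less RNA per cell cannot be told apart.

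All 487 lncRNAs lay wholly inside their gene, and each sat within an intron. None overlapped an annotated exon, and none overlapped an annotated gene of another biotype. The authors had already removed assembled transcripts that matched the annotation or shared much of a known transcript. Exon overlap was thus limited before these loci were listed. The loci were 355 to 61332 bp long, with a median of 2149 bp, and covered a median of 13.5% of an intron whose own median length was 19708 bp. The first intron of the gene held 104 of them, the second intron 89 and the last intron 22, and 259 lay in the longest intron of their gene. They lay nearer the upstream exon in 286 cases, at a median of 4596 bp from the upstream exon and 7203 bp from the downstream exon, and 61 began or ended within 100 bp of an exon.

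The 487 lncRNAs fell in 431 genes, or 2.93% of the 14709 protein-coding genes, and all 431 were in the mRNA table. The genes that held a lncRNA were long, with a median of 88939 bp against 15566 bp for all protein-coding genes. Among the 1471 longest genes, 217 (14.8%) held at least 1 of these lncRNAs, against 0 of the 1471 shortest. By their annotated product, 18 of the 431 genes were zinc finger proteins (4.18%, against 2.24% of all genes) and 23 were kinases (5.34% against 4.24%). Homeobox proteins made up 0.464% of the 431 genes and 1.04% of all genes, and the homeobox genes of the annotation were short, with a median of 8222 bp. These shares are not corrected for gene length.

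The intronic lncRNAs were weakly expressed, and more so in liver than in adipose tissue. In liver the median FPKM over the 487 lncRNAs was 0.113 ± 0.023 in high-intake and 0.149 ± 0.028 in control geese (mean ± SD over 3 libraries). For AA it was 0.375 ± 0.023 in high-intake and 0.504 ± 0.104 in control geese, and for SA it was 0.373 ± 0.135 in high-intake and 0.469 ± 0.151 in control geese. The highest library medians were those of C2-SA (0.642) and C2-AA (0.594). No liver library reached the lowest adipose library, whose median was 0.283. The lncRNAs within 10 kb of a gene had lower medians, of 0.0925 ± 0.0225 in high-intake and 0.106 ± 0.010 in control liver, and of 0.196 ± 0.016 in high-intake and 0.213 ± 0.030 in control abdominal adipose. The lncRNAs farther from genes were lower still, at 0.0381 ± 0.0131 in high-intake and 0.0523 ± 0.0258 in control abdominal adipose.

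**Figure D1:**
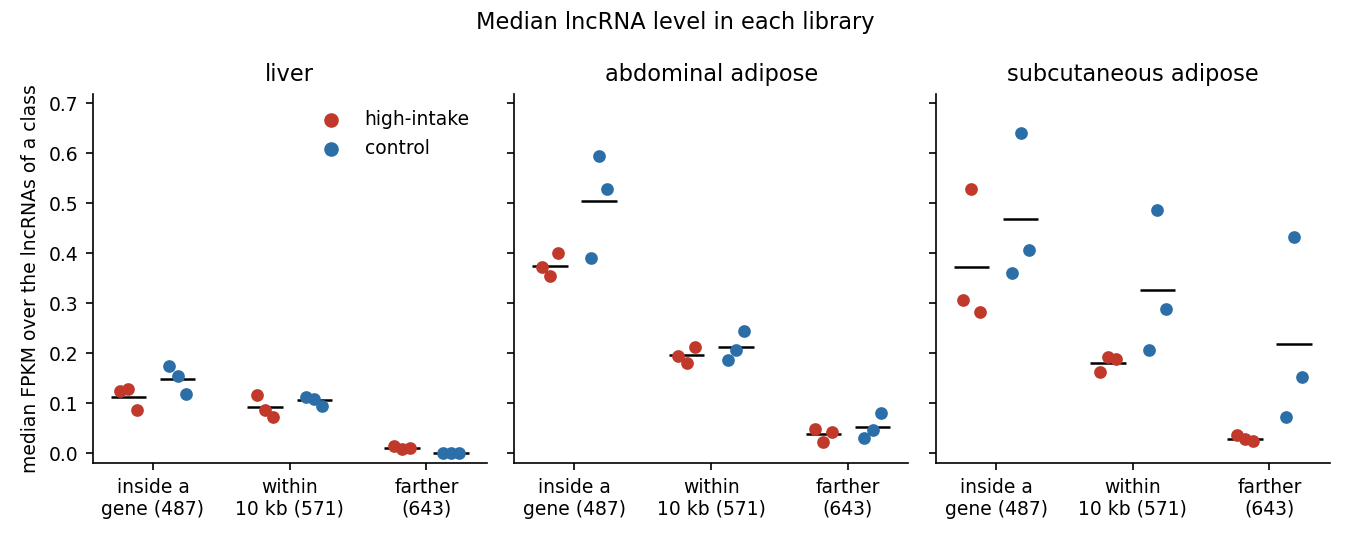
Median FPKM of the 487 lncRNAs inside a protein-coding gene, of the 571 within 10 kb of one and of the 643 farther away, in each of 18 libraries. Points are libraries, red for high-intake and blue for control geese, and the black line is the mean of 3. The mean of each feeding group was highest for the intronic lncRNAs in all 3 tissues, and C2-SA (0.642) was the highest point.

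An average FPKM above 0.1 was reached by 292 of the 487 lncRNAs in liver, 375 in AA and 429 in SA. In all 3 tissues it was reached by 261, in both adipose tissues but not in liver by 106, in liver alone by 23 and in no tissue by 27. The counts that involve SA include C2-SA, where 95.3% of the 487 were at FPKM 0.1 or more. Over all lncRNAs, 1373 passed this level in SA with C2-SA and 1042 without it. An average above 1 over all libraries was reached by 105 of the 487, against 72 of the 571 lncRNAs within 10 kb of a gene and 25 of the 643 farther away. The lncRNA was usually a fraction of its gene. The median ratio of lncRNA to gene FPKM was 0.126 in liver (286 pairs with both above 0.1), 0.143 in AA (366 pairs) and 0.157 in SA (417 pairs), and the lncRNA exceeded its gene in 7, 9 and 19 of these pairs.

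XLOC_358265 was the most abundant lncRNA of all 487 in each tissue. It is a locus of 444 bp (NW_013186103.1, 12432 to 12875) in the last intron of LOC106049848, annotated as a class I histocompatibility antigen, F10 alpha chain-like; class I molecules present peptides to T cells. In liver it was at 723, 1589 and 1105 FPKM in T1 to T3 and at 187, 1117 and 158 FPKM in C1 to C3. In abdominal adipose it was at 818, 2620 and 3211 FPKM in T1 to T3 and at 650, 3235 and 452 FPKM in C1 to C3. In subcutaneous adipose it was at 1679, 2796 and 4682 FPKM in T1 to T3 and at 1308, 4335 and 865 FPKM in C1 to C3. In every tissue the geese T2, T3 and C2 lay above the geese T1, C1 and C3, so that feeding groups overlapped while the birds kept a similar order across tissues. The gene itself was far lower, between 7.06 and 111 FPKM, and its highest value in each tissue was in T2 for liver (55.2) and both adipose tissues (111 and 93.1). XLOC_358265 alone made up 16.4% to 76.9% of the summed FPKM of all 1701 lncRNAs. The class I genes are a family of near-identical copies, so these values are uncertain as to the copy they come from.

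After it, the lncRNAs with the highest mean level in liver were XLOC_222846 in FAM126B, XLOC_347579 in BNC2 (a zinc finger transcription factor), XLOC_081876 in MFN1 (a mitochondrial fusion protein) and XLOC_194453 in MTSS1 (an actin-binding membrane protein). XLOC_081876, in intron 8 of MFN1, was measured in every library, with 4.37 to 5.18 FPKM in high-intake and 3.41 to 6.40 in control L, 8.05 to 9.18 in high-intake and 7.95 to 13.01 in control AA, and 4.399 to 6.43 in high-intake and 3.12 to 5.24 in control SA. Among the next highest in adipose tissue were XLOC_316689 in BMPER and XLOC_036312 in CRIM1, both genes for proteins that bind bone morphogenetic proteins, and XLOC_266820 in ABI1, an actin regulator.

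The comparison of tissues within a feeding group asked which of these lncRNAs differ between liver and adipose tissue. Most that differed were lower in liver. Between liver and abdominal adipose of high-intake geese, 26 of 360 lncRNAs tested were higher and 176 lower in liver (limma on log2(FPKM + 0.1), Benjamini-Hochberg adjusted p under 0.05 over all lncRNAs); that is 56.1% of the intronic lncRNAs against 53.9% of all 1008 lncRNAs tested (11.7% higher and 42.2% lower). In control geese 30 of 380 were higher and 202 lower in liver (61.1%, against 56.6% of all 1028, of which 12.3% higher and 44.4% lower). Against SA, 22 of 360 were higher and 157 lower in liver of high-intake geese (all lncRNAs 48.8%, with 11.8% higher and 36.9% lower), and 21 of 436 were higher and 153 lower in liver of control geese (all lncRNAs 38.2%, with 4.35% higher and 33.8% lower). The median difference of the intronic lncRNAs between liver and abdominal adipose was -1.12 on the log2 scale in high-intake and -1.15 in control geese, beside -0.91 and -0.93 for all lncRNAs tested.

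The balance of these calls depended on the scale. Once each library was centred on its own median, 39 lncRNAs were higher and 75 lower in liver than in abdominal adipose of high-intake geese, and 46 were higher and 103 lower in control geese. That made 114 of 360 intronic against 336 of all 1008 lncRNAs in high-intake geese, and 149 of 380 against 438 of all 1028 in control geese. The intronic share was then no longer above that of all lncRNAs. Against subcutaneous adipose the centred values gave 42 higher and 75 lower in liver of high-intake geese, and 46 higher and 32 lower in liver of control geese, where the median difference moved to 0.05 from -1.10. That made 117 of 360 intronic against 344 of all 996 lncRNAs in high-intake geese, and 78 of 436 against 261 of all 1424 in control geese. In high-intake geese 93 intronic calls between liver and abdominal adipose were made without T3 and 113 without T1, and in control geese 128 without C2 and 133 without C3. Over all lncRNAs these were 246 of 982, 311 of 999, 362 of 1010 and 378 of 997. Against subcutaneous adipose the intronic calls in high-intake geese were 108 without T1, 106 without T2 and 100 without T3, and those in control geese were 70 without C1, 112 without C2 and 29 without C3. Over all lncRNAs these were 308 of 985, 304 of 945 and 271 of 968 in high-intake geese. In control geese they were 184 of 1517, 340 of 1086 and 73 of 1459.

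No intronic lncRNA passed between abdominal and subcutaneous adipose. None of 363 was called in high-intake geese by limma (all lncRNAs 0.00%), of which 17 had an unadjusted p under 0.05 (all lncRNAs 4.41%). None of 442 was called in control geese (all lncRNAs 0.209%), of which 62 had an unadjusted p under 0.05 (all lncRNAs 13.9%). With the goose as a block, since the tissues came from the same birds, the counts were 0 in high-intake and 6 in control geese. Over all lncRNAs the block gave 0 of 953 in high-intake and 15 of 1436 in control geese.

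The lncRNA and its gene mostly shared the sign of their tissue difference. Both were on the same side of 0 in 298 of 355 pairs (83.9%) between liver and abdominal adipose of high-intake geese and in 313 of 372 pairs (84.1%) of control geese. Only 18.3% of the intronic lncRNAs and 23.0% of their genes were above 0 in high-intake geese (18.2% and 23.0% in control geese). Unrelated pairs would therefore also often share a sign. Of the 173 lncRNAs called lower in high-intake liver whose gene was tested, the gene was also called lower for 143, and of the 26 called higher the gene was also called higher for 17. In control geese these counts were 164 of 198 and 21 of 29. Of all tested genes that hold a lncRNA, 54.0% were called lower and 12.2% higher in high-intake liver. In control liver these shares were 56.7% and 13.6%. The signs were not compared on values centred by library.

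**Figure D2:**
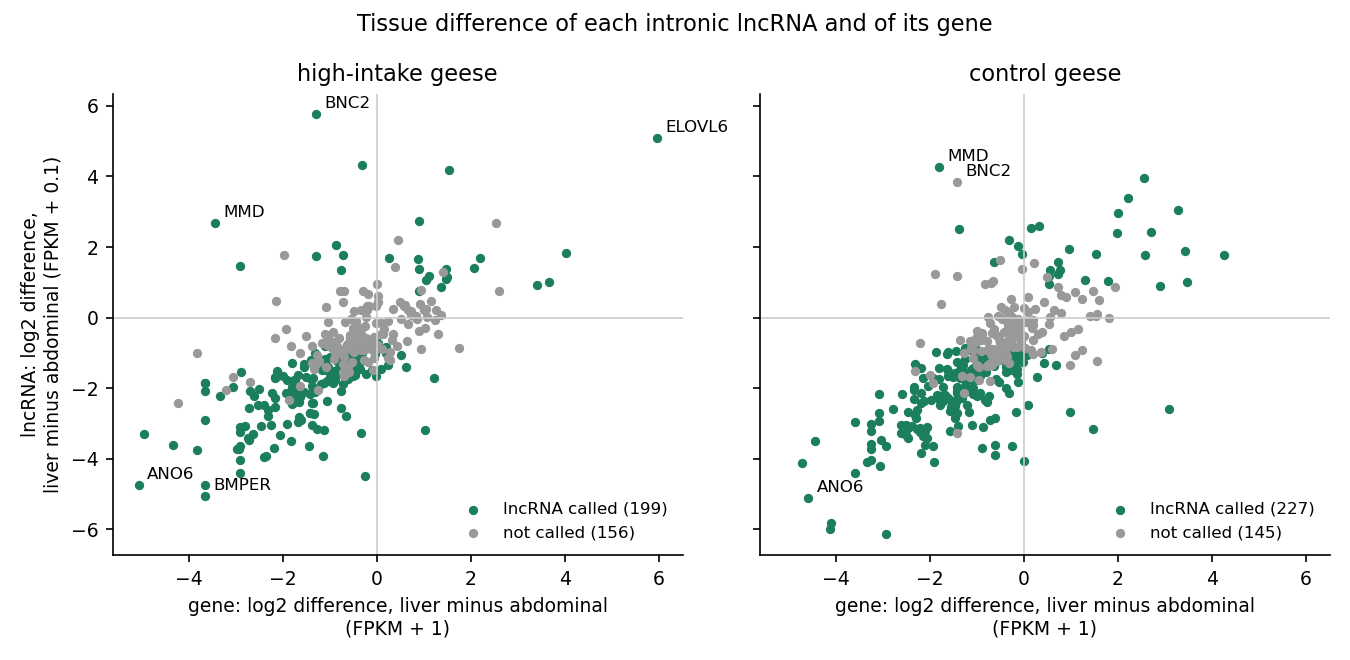
Log2 difference between liver and abdominal adipose of each intronic lncRNA (vertical axis, FPKM + 0.1) against that of the gene that holds it (horizontal axis, FPKM + 1), for high-intake geese on the left and control geese on the right. Each point is a lncRNA with its gene and green points are lncRNAs that passed the test; 83.9% and 84.1% of the pairs lie on the same side of 0 for both, while BNC2 and MMD lie at the upper left.

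Among the lncRNAs lower in liver were those in BMPER, SLIT3, ANO6 and PDE1C. XLOC_316689 (NW_013185854.1, 95898 to 116736) fills most of intron 3 of BMPER, a secreted protein. It was at 0.569, 0.508 and 0.276 FPKM in T1-L to T3-L against 17.2, 16.3 and 20.2 FPKM in T1-AA to T3-AA, a log2 difference of -5.06 (SE 0.33, limma adjusted p = 0.00020). BMPER itself averaged 0.256 FPKM in these livers and 15.1 FPKM in this adipose tissue. XLOC_116715 in SLIT3, a secreted ligand of ROBO receptors, was listed at 0 in all 3 control livers against 3.74, 7.38 and 6.29 FPKM in C1-AA to C3-AA, and SLIT3 averaged 0.910 FPKM in the livers and 31.9 FPKM in the adipose libraries. XLOC_034157 in ANO6, a calcium-activated phospholipid scramblase, was listed at 0 in all 6 livers and was between 0.500 and 7.92 FPKM in abdominal adipose. XLOC_316487 in PDE1C, a cyclic nucleotide phosphodiesterase, was at 0 to 0.0465 FPKM in high-intake livers against 1.97 to 4.26 FPKM in high-intake abdominal adipose, and at 0 to 0.153 FPKM in control livers against 5.51 to 14.4 FPKM in control abdominal adipose. The groups did not overlap for any of these lncRNAs. Others of this size were XLOC_012860 in SORCS2, a sorting receptor (-4.41 in control geese, adjusted p = 0.00021), and XLOC_141950 in CCDC146, which was listed at 0 in high-intake livers, at 1.41 to 2.73 FPKM in abdominal adipose of the same birds, and lies 3 bp from the upstream and 30 bp from the downstream exon of its intron.

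Fewer lncRNAs were higher in liver. XLOC_199084 (NW_013185723.1, 3817266 to 3823421) lies in intron 2 of ELOVL6, the elongase of saturated and monounsaturated long-chain fatty acids. It was at 9.80, 0.742 and 8.36 FPKM in T1-L to T3-L against 0.066, 0 and 0.007 FPKM in T1-AA to T3-AA, a log2 difference of 5.09 (SE 0.91, limma adjusted p = 0.0042), and ELOVL6 averaged 464 and 7.63 FPKM in the same libraries. XLOC_346058 in LOC106048076, an alpha-2-macroglobulin-like gene, was at 1.35, 1.21 and 1.91 FPKM in C1-L to C3-L and listed at 0 in all abdominal adipose libraries. XLOC_306638 in PTPN3, a protein tyrosine phosphatase, was at 2.22, 1.397 and 1.34 FPKM in control livers against 0.246, 0.038 and 0.089 FPKM in control abdominal adipose, and PTPN3 averaged 15.6 FPKM in control livers against 0.743 FPKM. For all of these the liver and adipose values did not overlap, and gene and lncRNA were higher in the same tissue.

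In a few pairs the lncRNA and its gene passed the test in opposite directions, 8 in high-intake and 6 in control geese. XLOC_122634 (NW_013185685.1, 3699969 to 3705455) in the first intron of MMD was at 0.478, 0.365 and 0.891 FPKM in T1-L to T3-L and at 0 in T1-AA to T3-AA, whereas MMD averaged 69.8 FPKM in those livers and 763 FPKM in that adipose tissue. In control geese it was at 4.92, 1.25 and 6.69 FPKM in liver against 0.126, 0 and 0.182 FPKM in abdominal adipose (log2 4.27, SE 0.66, limma adjusted p = 0.0016), while MMD was lower in liver (-1.81, adjusted p = 0.0019). The reverse held for XLOC_074281 in ESRRG, an orphan nuclear receptor of oxidative metabolism. It was at 0.933, 0.635 and 1.09 FPKM in T1-L to T3-L against 9.33, 5.58 and 12.4 FPKM in T1-AA to T3-AA (-3.18, adjusted p = 0.0011), while ESRRG averaged 6.76 FPKM in those livers and 2.77 FPKM in that adipose tissue (1.02, adjusted p = 0.020). The same pair was opposed in control geese, with -3.17 for XLOC_074281 (adjusted p = 0.0044) and 1.48 for ESRRG (adjusted p = 0.00011). Other opposed pairs, named after their values were seen, included in high-intake geese XLOC_347579 and XLOC_347575 in BNC2, XLOC_269308 in NEURL1B, XLOC_040987 in UBR3 and XLOC_032053 in ACSS3. In control geese they were XLOC_332491 in PTH1R, XLOC_095271 in PPP2R2B, XLOC_345696 in LOC106048035 and XLOC_306032 in NEDD4L.

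Of the 431 genes, 45 held 2 or more of these lncRNAs, 101 in all. MAGI1, a scaffold protein of cell junctions, held 5 lncRNAs and the ankyrin gene ANK2 held 4, while BNC2, BTBD11, FARP1, PDE10A, PDE8A and SYN3 held 3 each. In 33 of the 36 genes with at least 2 lncRNAs above FPKM 0.1 in liver or abdominal adipose, all such lncRNAs had their higher mean in the same of these tissues. Among all intronic lncRNAs tested, only 18.3% in high-intake and 18.2% in control geese were higher in liver. Those of different genes would therefore also often agree. Within a tissue, lncRNAs of the same gene had a median Pearson r over 6 geese of 0.46 in liver (33 pairs of lncRNAs), 0.66 in AA (53 pairs) and 0.44 in SA (58 pairs), as a description over lncRNAs that share libraries and a gene. No r between lncRNAs of different genes was computed to set beside these.

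All 5 MAGI1 lncRNAs were lower in liver than in abdominal adipose in both feeding groups, and no liver value reached any abdominal value of the same lncRNA. XLOC_140164, the most abundant, was at 0.239, 0.279 and 0.097 FPKM in T1-L to T3-L against 7.54, 4.74 and 6.47 FPKM in T1-AA to T3-AA (-4.41, SE 0.36, limma adjusted p = 0.00023). It was at 0.494, 0.459 and 0.255 FPKM in C1-L to C3-L against 4.87, 8.58 and 6.06 FPKM in C1-AA to C3-AA (-3.71, SE 0.34, adjusted p = 0.00029). MAGI1 itself averaged 2.11 FPKM in high-intake livers against 22.5 FPKM in high-intake abdominal adipose. The loci XLOC_140138 and XLOC_140148 are listed with the same interval (NW_013185692.1, 2923900 to 2969099) but with different values, averaging 0.473 and 0.043 FPKM in liver and 5.85 and 2.36 FPKM in abdominal adipose.

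The 3 lncRNAs of BNC2, all in intron 3, did not share a pattern. In the high-intake comparisons below, each passed the filter on low values through only liver or only abdominal adipose. The size of these differences depends on the pseudocount, and the low tissue added little spread to the test. XLOC_347579 (NW_013185947.1, 261187 to 290569) was at 4.77, 11.2 and 3.43 FPKM in T1-L to T3-L against 0.022, 0 and 0 FPKM in T1-AA to T3-AA (5.76, SE 0.45, limma adjusted p = 0.00022). It was at 5.48 and 5.17 FPKM in C2-L and C3-L, but listed at 0 in C1-L and in C1-AA to C3-AA, and the control difference missed the threshold (adjusted p = 0.050). XLOC_347575, which lies upstream of it, was likewise higher in high-intake liver (0.311, 0.376 and 0.177 FPKM against 0.026, 0.008 and 0.006 FPKM in abdominal adipose, adjusted p = 0.0059), and C1-L listed it at 0 as well. XLOC_347400, which lies between them, was lower in high-intake liver (0, 0 and 0.172 FPKM against 0.316, 0.709 and 0.474 FPKM in abdominal adipose, adjusted p = 0.012), as was BNC2 itself, which averaged 0.063 FPKM in high-intake livers and 1.63 FPKM in high-intake abdominal adipose.

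**Figure D3:**
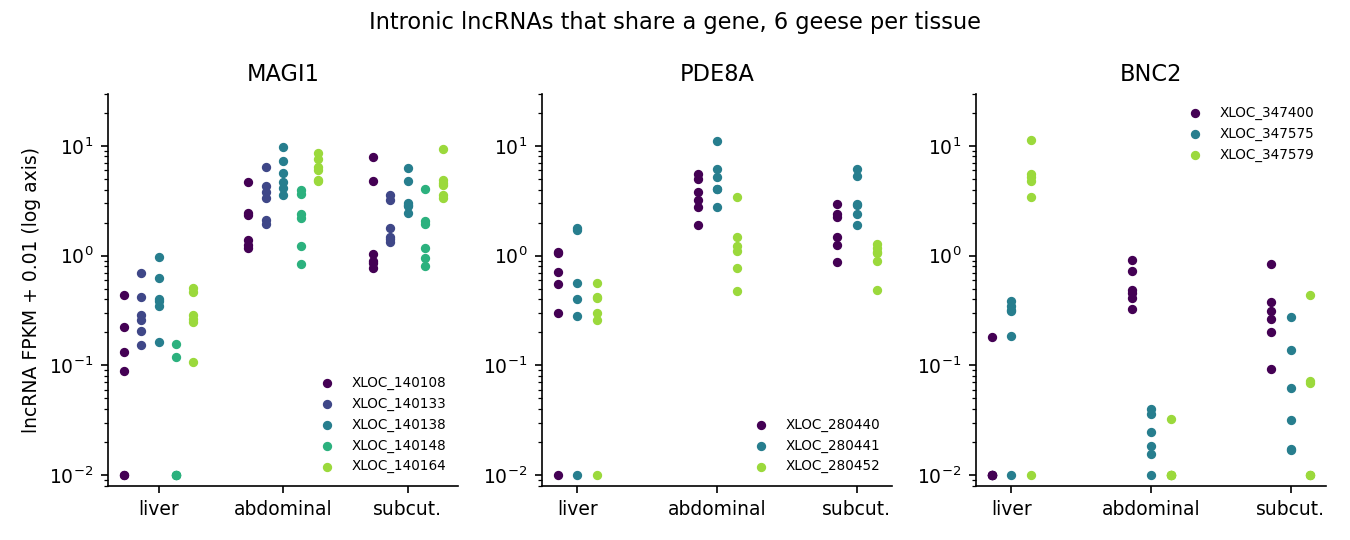
FPKM of the lncRNAs that lie in MAGI1 (5), PDE8A (3) and BNC2 (3) in L, AA and SA, on a log axis after adding 0.01. Each point is a goose (6 per tissue) and each colour a lncRNA; all MAGI1 lncRNAs were lower in L than in AA, and in BNC2 XLOC_347579 reached 11.2 FPKM in liver while XLOC_347400 was higher in adipose tissue.

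The feeding comparison asked which intronic lncRNAs respond to high intake within a tissue, and few passed the test. In liver 1 of 292 lncRNAs was higher and 2 were lower in high-intake geese (limma, Benjamini-Hochberg adjusted p under 0.05), against 1.23% of all lncRNAs called, 0.739% higher and 0.493% lower. An unadjusted p under 0.05 was found for 57 of them (all lncRNAs 19.6%). In AA 3 of 375 passed, all lower (all lncRNAs 0.393%, with 0.294% lower), and 64 had an unadjusted p under 0.05 (all lncRNAs 13.9%). In SA none of 429 passed limma's test (all lncRNAs 0.00%), and 59 had an unadjusted p under 0.05 (all lncRNAs 16.1%).

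Of the genes that hold a lncRNA, 4 of 375 were called in liver (all genes 2.19%), 0 of 404 in AA (all genes 0.0878%; 54 with an unadjusted p under 0.05, all genes 20.3%) and 2 of 416 in SA (all genes 2.13%). None of their lncRNAs was called in the same tissue. GCH1, the first enzyme of tetrahydrobiopterin synthesis, rose in liver, at 56.7, 49.97 and 67.1 FPKM in T1-L to T3-L against 19.1, 25.2 and 12.6 FPKM in C1-L to C3-L (1.603, limma adjusted p = 0.041), while its lncRNA XLOC_292364 overlapped between the groups. IL15, a cytokine of lymphocytes, fell to 0.819, 0.892 and 0.914 FPKM in T1-L to T3-L, against 5.06, 4.67 and 2.65 FPKM in C1-L to C3-L (-1.42, adjusted p = 0.034), and its lncRNA XLOC_331636 was below the filter in liver. The other 2 in liver, PTK2 (-0.81, adjusted p = 0.045) and LOC106038726 (-0.98, adjusted p = 0.038), were lower. In SA the neurexin-3 gene LOC106038824 rose, at 6.15, 6.58 and 12.2 FPKM in T1-SA to T3-SA against 1.79, 1.36 and 1.25 FPKM in C1-SA to C3-SA (1.86, adjusted p = 0.00019). Its lncRNA XLOC_201834 was at 0.646, 1.13 and 0.758 FPKM against 0.195, 0.441 and 0.156 FPKM in the same libraries, without overlap but not called (1.43, adjusted p = 0.26). The number of such genes called in liver was 0 without C1 or C2, 1 without C3 (among these 4) and 1 without T1, T2 or T3 (not among them). In SA it was 0 without C2, 1 without T3, 3 without T1 and 5 without C1, and 1, 1 and 2 of the last 3 counts were among the 2 called. In AA it was 1 without C1 or T2. Over all genes, liver counts were 0 without C1, 39 without C2, 13 without C3, 61 without T1, 220 without T2 and 238 without T3. Those in SA were 4 without C2, 140 without T3, 122 without T1 and 715 without C1. Those in AA were 245 without C1 and 21 without T2.

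Most of the differences, called or not, were negative in liver and abdominal adipose. The log2 difference was above 0 for 83 of 292 lncRNAs in liver (28.4%, all lncRNAs 36.95%). In abdominal adipose it was above 0 for 81 of 375 (21.6%, all lncRNAs 32.8%). The medians were -0.37 and -0.33 beside -0.29 and -0.24 over all lncRNAs tested. With each library centred on its median these medians were -0.18 and -0.16 (all lncRNAs -0.09 and -0.07). In subcutaneous adipose the median of the intronic lncRNAs was -0.15 (all lncRNAs -0.44), and it turned to 0.38 (all lncRNAs 0.09) with the centring and was -0.03 without C2-SA. Lymphocyte markers (7 of 7 measured) summed to between 13.7 and 22.6 FPKM in high-intake and between 32.5 and 40.4 in control livers, and endothelial markers (6 of 6) to between 33.0 and 39.9 in high-intake and between 53.9 and 76.3 in control livers. Adipocyte markers summed to between 3432 and 3685 FPKM in high-intake and between 1743 and 2596 in control abdominal adipose. In SA adipocyte markers summed to between 2749 and 3217 FPKM in high-intake and between 716 and 2075 in control geese, and skin keratinocyte markers (5 of 10 measured) to between 154 and 189 in high-intake and between 51.8 and 150.1 in control geese. The part of these shifts in the lncRNA differences was not tested.

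**Figure D4:**
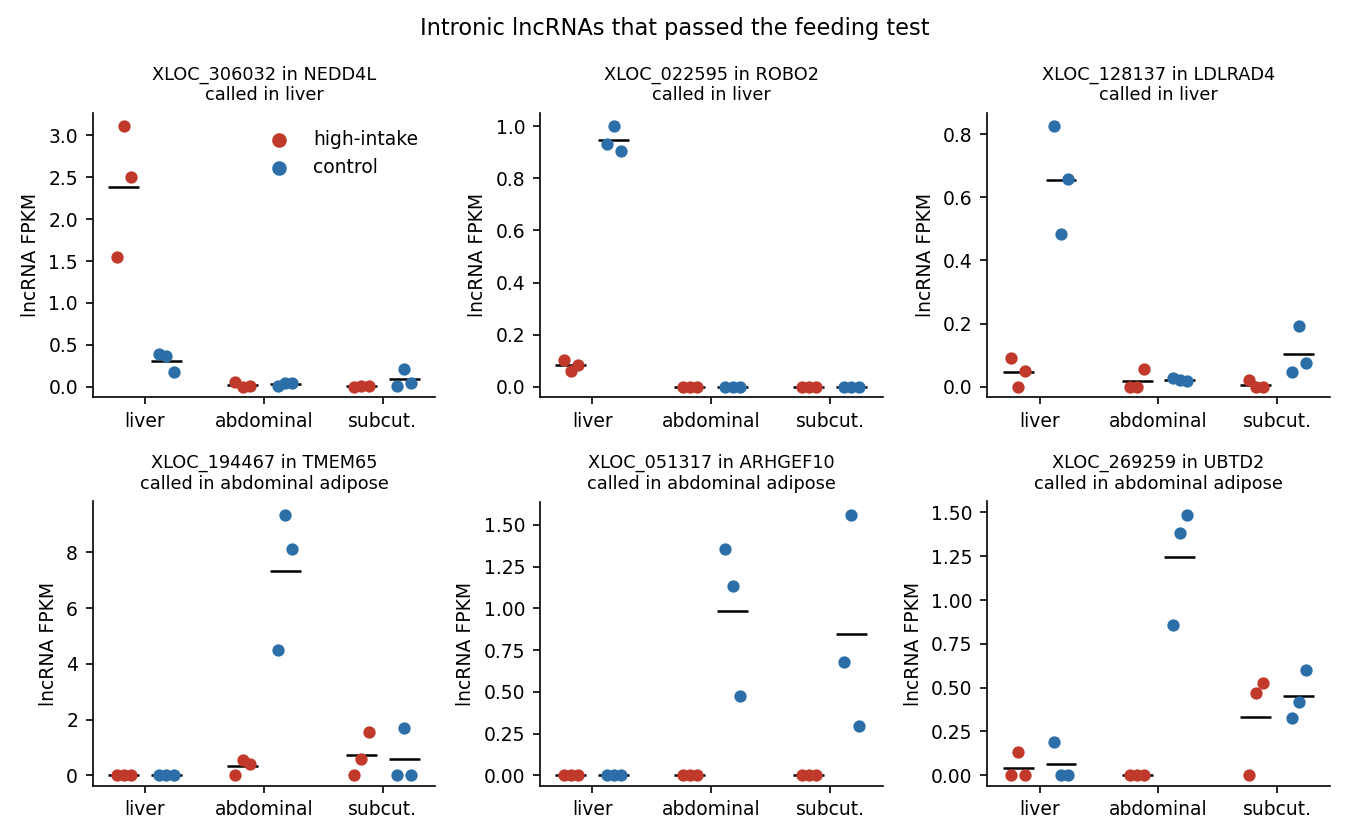
FPKM of the 6 intronic lncRNAs that passed the feeding test, in liver, abdominal and subcutaneous adipose. Points are geese, red for high-intake and blue for control, and the black line is the mean of 3; XLOC_306032 in NEDD4L was higher in all 3 high-intake livers and the other 5 were lower in the tissue of the call.

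In liver XLOC_306032 rose with high intake. It lies in intron 14 of NEDD4L (NW_013185836.1, 1519057 to 1524539), a ubiquitin ligase known in mammals for regulating membrane channels. It was at 1.55, 3.11 and 2.50 FPKM in T1-L to T3-L against 0.396, 0.363 and 0.180 FPKM in C1-L to C3-L, a log2 difference of 2.58 (SE 0.39, limma adjusted p = 0.035). The groups did not overlap. NEDD4L was at 8.89, 8.43 and 9.94 FPKM in these high-intake livers against 7.07, 7.85 and 6.62 FPKM in control livers, which did not pass (0.30, adjusted p = 0.27).

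XLOC_022595 and XLOC_128137 fell in liver. XLOC_022595 (NW_013185656.1, 17395531 to 17403143) lies in intron 3 of ROBO2, a receptor for SLIT ligands, 163063 bp from the upstream exon. It was at 0.103, 0.061 and 0.083 FPKM in T1-L to T3-L against 0.932, 1.00 and 0.905 FPKM in C1-L to C3-L (-2.52, SE 0.28, limma adjusted p = 0.023), and it was listed at 0 in all 12 adipose libraries. ROBO2 was at 1.78, 0.298 and 1.88 FPKM in high-intake and 7.10, 5.73 and 3.04 FPKM in control livers (-1.47, adjusted p = 0.086). XLOC_128137 (NW_013185687.1, 4718955 to 4723832) lies in the first intron of LDLRAD4, a membrane protein that restrains TGF-beta signalling in mammals. It was at 0.091, 0 and 0.051 FPKM in high-intake against 0.826, 0.485 and 0.658 FPKM in control livers (-2.38, SE 0.37, adjusted p = 0.036), and LDLRAD4 was at 6.94, 5.56 and 3.79 FPKM against 17.0, 10.1 and 7.34 FPKM (-0.91, adjusted p = 0.14). For XLOC_022595 and XLOC_128137 the groups did not overlap. Both passed the filter on low values through control livers, since their high-intake livers averaged under 0.1 FPKM. Those libraries lie near the pseudocount and added little spread to the test, and the size of both differences depends on it. The number of intronic lncRNAs called in liver by limma was 0 without C1 or C3, 1 without T1, 2 without C2 or T3 and 3 without T2, with 1 of these 3 lncRNAs among the calls in each of the last 4 cases, and it was 0 with a pseudocount of 1. Over all lncRNAs these counts were 0 without C1 or C3, 3 without T1, 7 without C2, 5 without T3 and 9 without T2. With a pseudocount of 1 no lncRNA of any position was called in liver.

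Further liver differences missed the adjusted threshold. XLOC_199084 in ELOVL6 was at 9.80, 0.742 and 8.36 FPKM in T1-L to T3-L against 0.086, 0.171 and 0.048 FPKM in C1-L to C3-L (4.41, SE 0.91, limma adjusted p = 0.082), and without T2 it passed (5.55, adjusted p = 0.0040). ELOVL6 was at 509, 159 and 725 FPKM in high-intake and 342, 352 and 235 FPKM in control livers (0.35, adjusted p = 0.72), so that T2-L was the lowest high-intake liver for both. XLOC_074860 in PLEKHH1 was at 1.89, 0.567 and 4.30 FPKM in high-intake against 0.097, 0 and 0 FPKM in control livers (3.85, SE 0.69, adjusted p = 0.051, and 0.014 without T2). For XLOC_199084 and XLOC_074860 the fit without T2 leaves out the lowest high-intake liver. Their fits without each other goose are not given here, so the passing values are no separate evidence. Also higher was XLOC_171275 in FAM102A (2.17, adjusted p = 0.10). Among those lower were XLOC_122634 in MMD (-2.48), XLOC_358840 in LOC106029539 (-2.02), XLOC_044898 in MPP6 (-1.96), XLOC_041643 in SSFA2 (-1.71) and XLOC_283367 in ZWILCH (-1.69), with adjusted p between 0.076 and 0.115. In all of these the high-intake and control livers did not overlap, which held for 85 of the 292 lncRNAs (29.1%) and for 28.8% of all lncRNAs tested.

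In abdominal adipose XLOC_194467, XLOC_051317 and XLOC_269259 fell with high intake. XLOC_194467 (NW_013185721.1, 2194352 to 2194814) lies in intron 2 of TMEM65, a mitochondrial inner membrane protein. It was at 0, 0.557 and 0.409 FPKM in T1-AA to T3-AA against 4.48, 9.36 and 8.11 FPKM in C1-AA to C3-AA (-4.46, SE 0.68, limma adjusted p = 0.039). TMEM65 was at 30.7, 28.4 and 59.4 FPKM in high-intake and 41.6, 17.3 and 29.0 FPKM in control abdominal adipose, and these groups overlapped. The other lncRNA of this intron, XLOC_194466, was at 0.570, 0.807 and 1.15 FPKM in high-intake against 2.85, 3.80 and 3.29 FPKM in control abdominal adipose (-1.89, SE 0.33, adjusted p = 0.069).

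XLOC_051317 (NW_013185662.1, 11947328 to 11948214) lies in intron 8 of ARHGEF10, a guanine nucleotide exchange factor. It was listed at 0 in T1-AA to T3-AA against 1.36, 1.13 and 0.472 FPKM in C1-AA to C3-AA (limma adjusted p = 0.012). It was also listed at 0 in T1-SA to T3-SA against 0.679, 1.56 and 0.297 FPKM in C1-SA to C3-SA (adjusted p = 0.14), and at 0 in all livers. ARHGEF10 was at 8.13, 6.79 and 11.0 FPKM in high-intake and 9.12, 14.3 and 11.6 FPKM in control abdominal adipose. XLOC_269259 (NW_013185785.1, 1071165 to 1071644) lies in the last intron of UBTD2, a ubiquitin-like domain protein. It was listed at 0 in T1-AA to T3-AA against 0.858, 1.38 and 1.49 FPKM in C1-AA to C3-AA (adjusted p = 0.0030), while in subcutaneous adipose its groups overlapped. UBTD2 was at 18.8, 12.3 and 9.89 FPKM in high-intake and 11.7, 7.24 and 9.67 FPKM in control abdominal adipose. In this tissue XLOC_051317 and XLOC_269259 passed the filter on low values through control libraries alone. Their high-intake libraries added no spread to the test. The number of intronic lncRNAs called in AA was 1 without C1 or C2 and 2 without C3, each among the 3 called with all geese. Over all lncRNAs it was 2 without C1 or C2 and 4 without C3.

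Further differences in abdominal adipose missed the threshold. Among the positive ones without overlap between the groups were those of XLOC_099127 in ERI3, an exoribonuclease (2.60, limma adjusted p = 0.11), XLOC_074281 in ESRRG (1.78, adjusted p = 0.27), XLOC_292364 in GCH1 (1.56, adjusted p = 0.20), XLOC_358767 in LOC106029474 (1.53) and XLOC_291066 in LOC106043964 (1.51). XLOC_099127 was at 1.30, 0.823 and 3.19 FPKM in T1-AA to T3-AA against 0.086, 0.181 and 0.263 FPKM in C1-AA to C3-AA, and at 0.736, 0.560 and 2.40 FPKM in T1-SA to T3-SA against 0.096, 0.049 and 0.123 FPKM in C1-SA to C3-SA. Its groups did not overlap in either adipose tissue, which was a condition for naming it, and its gene ERI3 overlapped in both. In AA the groups did not overlap for 20.3% of the intronic and 20.5% of all lncRNAs tested. In SA these shares were 18.9% and 25.7%. Among the negative ones without overlap, beside XLOC_194466, were those of XLOC_006022 in WAPAL (-2.43), XLOC_350555 in RUSC2 (-2.35), XLOC_159432 in COBL (-2.33) and XLOC_316487 in PDE1C (-1.76), with adjusted p between 0.19 and 0.29.

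In subcutaneous adipose no intronic lncRNA was called. XLOC_352881 in PCSK1, a proprotein convertase, was among those without overlap, at 0.122, 0.115 and 0.126 FPKM in T1-SA to T3-SA against 0.612, 6.44 and 2.34 FPKM in C1-SA to C3-SA (-3.35, SE 0.68, limma adjusted p = 0.14). XLOC_358477 in LOC106049951 and XLOC_198091 in ANK2 were listed at 0 in T1-SA to T3-SA and had 0.138 to 1.13 FPKM and 0.117 to 1.78 FPKM in control libraries, and XLOC_111256 in ARHGAP42 was at 0 to 0.043 FPKM in high-intake and 0.194 to 1.59 FPKM in control libraries. C2-SA was the highest control library for XLOC_352881, XLOC_198091 and XLOC_111256. XLOC_358477, XLOC_198091 and XLOC_111256 passed the filter on low values through control libraries alone. Among those with positive differences were XLOC_033577 in MON2 (1.85), XLOC_358767 in LOC106029474 (1.83), XLOC_358706 in PSMC4 (1.71) and XLOC_032053 in ACSS3 (1.67), with adjusted p between 0.26 and 0.28. Without C1-SA 4 intronic lncRNAs passed, against 12 of all 1416 lncRNAs tested.

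Whether the feeding response differed between tissues was tested as an interaction. Between liver and abdominal adipose it passed for 8 of 380 lncRNAs (limma; all lncRNAs 1.41%), and between liver and subcutaneous adipose for 5 of 410 (all lncRNAs 0.888%). With the goose as a block, since each bird gave all tissues, 0 of the 8 and 1 of the 5 still passed (XLOC_306032, adjusted p = 0.048), and 1 further intronic lncRNA passed against SA. Over all lncRNAs the block gave 3 of 1063 against AA and 8 of 1239 against SA. Against AA the intronic count was 1 without C1, C2 or C3, 4 without T1 and 3 without T3, each among the 8. Without T2 it was 7, of which 4 were among the 8. Over all lncRNAs it was 2, 5, 3, 7, 11 and 17 in the same order. Against SA the intronic count was 11 without C1 (the 5 among them), 1 without T1 or T2 (not among the 5) and 0 without C2, C3 or T3. Over all lncRNAs it was 36 without C1, 5 without T1, 4 without T2, 5 without C2, 0 without C3 and 4 without T3. The 8 were the 6 lncRNAs named above for feeding, XLOC_074860 in PLEKHH1 and XLOC_103284 in PDGFA, a platelet-derived growth factor. XLOC_103284 was at 0.088, 0.068 and 0.091 FPKM in T1-L to T3-L against 0.365, 0.317 and 0.395 FPKM in C1-L to C3-L, at 2.31, 2.28 and 1.93 FPKM in T1-AA to T3-AA against 1.56, 2.08 and 1.64 FPKM in C1-AA to C3-AA, and at 1.91, 2.19 and 1.94 FPKM in T1-SA to T3-SA against 1.34, 1.06 and 1.10 FPKM in C1-SA to C3-SA. Its difference was thus negative in liver and positive in subcutaneous adipose, with no overlap between feeding groups in either tissue. XLOC_041643 in SSFA2 was also among those that differed between liver and subcutaneous adipose, with 1.26, 1.53 and 1.16 FPKM in T1-SA to T3-SA against 0.623, 0.172 and 0.604 FPKM in C1-SA to C3-SA and lower values in high-intake livers.

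The correlation with the gene was computed within a tissue over its 6 geese. The median Pearson r was 0.40 in liver (286 pairs), 0.38 in AA (366 pairs) and 0.20 in SA (417 pairs), and r was above 0 in 74.5%, 71.9% and 60.0% of pairs. The same lncRNAs set against every gene tested had median r of 0.003, -0.14 and -0.15, and the lncRNAs within 10 kb of a gene had median r with the nearest gene of 0.29, 0.24 and -0.10 (0.20 without C2-SA). An r above 0.8 was found for 41 pairs in liver (14.3%), 59 in AA (16.1%) and 55 in SA (13.2%), against 4.14%, 3.10% and 4.81% of the pairs with every gene. The lncRNAs within 10 kb were close to the intronic ones, with 12.4%, 11.3% and 8.84% of pairs with the nearest gene above 0.8. Without C2-SA these SA shares were 14.2% for intronic lncRNAs and 12% for those within 10 kb. An r below -0.8 was found for 2, 10 and 8 intronic pairs (0.699%, 2.73% and 1.92%), against 3.86%, 6.55% and 8.70% of the pairs with every gene. For the lncRNAs within 10 kb these shares were 0.980%, 2.05% and 9.05%. These shares are descriptions, since pairs share libraries. No pair passed after Benjamini-Hochberg adjustment over the pairs of its tissue, while 33, 64 and 51 had an unadjusted exact permutation p under 0.05. With 6 geese the smallest such p of r is 0.0014, so a pair could pass only if several others were as low. The lack of passing pairs therefore says little. With the values centred within feeding groups the median in liver was 0.29. In SA the median was 0.31 without C2-SA, 0.0759 without T2-SA and 0.14 without T3-SA.

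**Figure D5:**
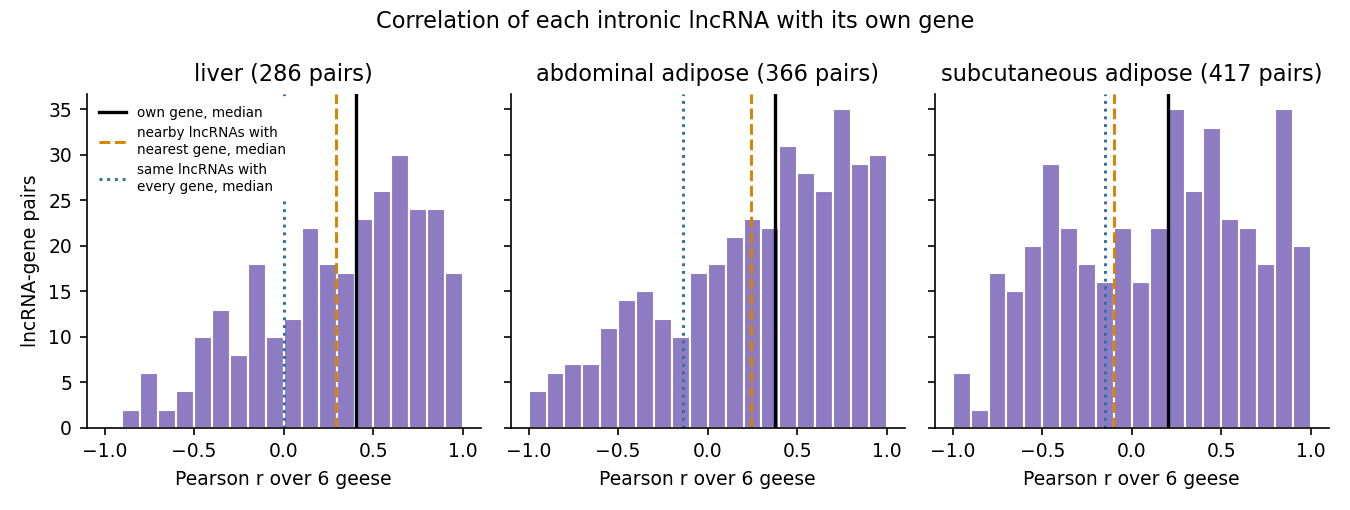
Pearson r over 6 geese between each intronic lncRNA and the gene that holds it, as counts of pairs in L (286), AA (366) and SA (417). The solid black line is the median (0.40, 0.38 and 0.20), the dashed line the median of lncRNAs within 10 kb with their nearest gene, and the dotted line the median of the same intronic lncRNAs with every gene; the solid line lies farthest right in each tissue.

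The correlation varied with the length of the locus. In liver the median r was 0.17 for the 63 pairs whose locus was under 1000 bp and 0.49 for the 70 pairs of at least 5000 bp, with 6.35% and 30% above 0.8. In AA 3.53% of the shorter and 27.2% of the longer were above 0.8, and in SA 13.3% and 14%. By distance to the nearest exon the tissues differed in order. In liver the median r was 0.38 within 100 bp, 0.53 between 100 and 1000 bp, 0.39 between 1000 and 5000 bp and 0.32 farther away. In AA it was 0.47, 0.38, 0.34 and 0.32 in the same order, lower with each step, with 23.2% of pairs above 0.8 within 100 bp and 13.1%, 16.0% and 15.0% at the longer distances, and in SA it was 0.30, 0.22, 0.15 and 0.22. The median level in liver was lower with each step of that distance, at 0.321, 0.305, 0.138 and 0.063 FPKM in the same order.

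Among the 257 pairs measured in all 3 tissues, the highest mean r was that of XLOC_199514 in LOC106038726, an uncharacterized gene, with r of 0.96 in liver, 0.99 in AA and 0.85 in SA (rho 0.83, 0.94 and 0.89). The exact permutation p of r were 0.019, 0.0028 and 0.028, adjusted over the pairs of the tissue to 0.35, 0.11 and 0.30; those of rho were 0.058, 0.017 and 0.033. Without the 2 geese farthest from the median of the gene, r was 0.94, 0.95 and 0.72. XLOC_199514 was at 0.221, 0.278 and 0.225 FPKM in T1-L to T3-L against 0.546, 0.621 and 0.422 FPKM in C1-L to C3-L, and its gene, at 2.15, 2.06 and 1.57 FPKM against 4.72, 5.08 and 4.50 FPKM, was called lower in high-intake liver (-0.98, limma adjusted p = 0.038).

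XLOC_194453 in MTSS1 had r of 0.81, 0.92 and 0.96 in L, AA and SA (rho 1, 0.94 and 1). XLOC_104833 in LOC106033657, a tropomodulin gene, had 0.95, 0.91 and 0.80 (rho 0.94, 0.77 and 0.77), and XLOC_344688 in SEMA6A, a transmembrane semaphorin, had 0.94, 0.79 and 0.92 (rho 0.66, 0.60 and 0.71). XLOC_289328 in CYTIP, a protein of lymphocytes, had 0.71, 0.98 and 0.94 (rho 0.03, 0.94 and 0.83), and it fills its 2428 bp intron up to 30 bp from the upstream and 21 bp from the downstream exon. In C3-AA XLOC_289328 was at 6.22 FPKM and CYTIP at 11.5 FPKM, against at most 1.46 and 2.76 FPKM in the other abdominal libraries. Without the 2 farthest geese r was 0.14 in AA and 0.19 in SA for XLOC_344688, 0.45 in SA for XLOC_104833 and -0.54 in liver for XLOC_289328. The exact permutation p of r of these 4 pairs lay between 0.0028 and 0.16 (adjusted 0.14 to 0.51), and those of rho between 0.0028 and 1 (adjusted 0.16 to 1).

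The lowest mean r were those of XLOC_327967 in TFDP1, the partner of E2F factors (-0.73, -0.74 and -0.73 in L, AA and SA), XLOC_301252 in SSU72, an RNA polymerase phosphatase (-0.79, -0.90 and -0.36), XLOC_040987 in UBR3, a ubiquitin ligase (-0.71, -0.61 and -0.52), XLOC_280452 in PDE8A (-0.47, -0.17 and -0.71) and XLOC_194466 in TMEM65 (-0.37, -0.33 and -0.66). XLOC_301252 was at 2.60, 1.77 and 1.52 FPKM in T1-L to T3-L against 4.43, 3.90 and 3.56 FPKM in C1-L to C3-L, while SSU72 was at 20.2, 18.1 and 18.1 FPKM against 13.2, 11.2 and 12.1 FPKM. Within feeding groups its r in liver was 0.74. Without the 2 farthest geese r in SA was 0.80 for XLOC_327967, 0.89 for XLOC_040987 and -0.08 for XLOC_280452, and for XLOC_194466 it was positive in all 3 tissues (0.57, 0.44 and 0.63); these values rest on 4 birds. The rho of the 5 pairs lay between -0.89 and -0.20. The exact permutation p lay between 0.0097 and 0.77 for r (adjusted 0.15 to 0.90) and between 0.033 and 0.71 for rho (adjusted 0.29 to 0.92).

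Among gene lists of metabolism, 4 of 42 annotated genes of fatty acid and triacylglycerol synthesis held one of these lncRNAs (ELOVL6, AGPAT3, ACSL3 and ME3; 9.52%), and so did 0 of 21 genes of lipid droplets and lipolysis, 0 of 56 of fatty acid oxidation and 0 of 50 of sterols and lipoproteins. Of 68 genes of glucose metabolism and insulin signalling 2 held one (SLC2A13 among them), of 44 regulators of adipogenesis 5 (among them NR1H3, TCF7L2, ZFAT and PRDM16), of 77 genes of extracellular matrix and adhesion 6, with 8 lncRNAs, of 71 immune genes 3 (RUNX1, IL1RAPL2 and IL15) and of 83 homeobox and patterning genes 0. Over all protein-coding genes 2.93% held one, and the shares of the lists are not corrected for gene length. No lncRNA of any of these lists was called for feeding in any tissue. Of all lncRNAs tested, 1.23% were called in liver, 0.393% in AA and 0.00% in SA. With so few lncRNAs per list, the lack of calls says little about the lists.

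XLOC_024751 in NR1H3, the liver X receptor alpha that senses oxysterols, was at 2.04, 2.75 and 0.777 FPKM in T1-L to T3-L against 2.02, 1.75 and 1.62 FPKM in C1-L to C3-L, and at 3.77, 3.21 and 5.82 FPKM in T1-AA to T3-AA against 5.16, 5.94 and 7.32 FPKM in C1-AA to C3-AA. XLOC_079582 in TCF7L2, a transcription factor of Wnt signalling, was at 2.95, 2.59 and 3.56 FPKM in T1-AA to T3-AA against 3.38, 9.81 and 6.93 FPKM in C1-AA to C3-AA. The feeding groups overlapped for both, and both were lower in liver than in abdominal adipose on average. XLOC_152744 in AGPAT3, an acyltransferase of phosphatidic acid synthesis, averaged 1.56 FPKM in L, 0.813 in AA and 0.691 in SA, with log2 differences between feeding groups of -0.18, -0.03 and -0.02.

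FRMD4B and ZFAT are among 10 genes that the study paired with a nearby lncRNA on these samples. The study named the same lncRNAs, XLOC_140330 and XLOC_277626, and listed the pairs for their high correlation. Their direction, r and permutation p are thus no independent evidence. At least XLOC_002528 and XLOC_025867 of the study's list are also intronic, but in FAM35A and SHANK2. The study paired them with GJD2 and DERL1, which do not hold them. XLOC_140330 in FRMD4B, a protein of epithelial junctions, was at 0.522, 0.833 and 0.217 FPKM in T1-L to T3-L against 2.09, 1.24 and 1.07 FPKM in C1-L to C3-L (-1.41 on the log2 scale, not called). Its r with FRMD4B was 0.94 in L, 0.90 in AA and 0.11 in SA (rho 1, 0.94 and -0.14; exact permutation p of r 0.0056, 0.0056 and 0.83, adjusted 0.23, 0.15 and 0.92). XLOC_277626 in ZFAT, a zinc finger protein, was at 0, 0.059 and 0.133 FPKM in high-intake against 0.249, 0.321 and 0.150 FPKM in control livers (-1.10, not called), with r of 0.85, 0.83 and -0.32 in the same order of tissues (rho 0.60, 0.77 and -0.26; exact permutation p of r 0.029, 0.018 and 0.53, adjusted 0.40, 0.19 and 0.80). Without the 2 farthest geese r of XLOC_277626 in liver was -0.35.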

How the data were processed

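RNA-seq of 18 libraries, 3 geese per tissue and feeding group, was analysed from the deposited tables. The authors mapped reads with Bowtie2 and TopHat2 to the Anser cygnoides assembly and assembled and quantified transcripts with Cufflinks 2.1.1, per the labels and methods. They removed transcripts that matched the annotation or shared much of a known transcript, and also single-exon lncRNAs. The deposited values of 1701 lncRNAs and 14628 mRNAs are log2 values, read as log2(FPKM + 1): on base 2 every library sums to at most 438339 FPKM, whereas on base e the lowest sum would be 1197647. Gene positions are the deposited annotation's start and end coordinates; lncRNA positions on the same scaffolds are printed as the lncRNA table gives them, which does not state whether it counts from 0 or 1, so lengths and distances may be off by a base. The tables hold no read counts, so depth and counting error are unknown.

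Values were turned back to FPKM. Each comparison was fitted over the whole table on log2(FPKM + 0.1) for lncRNAs and log2(FPKM + 1) for mRNAs, keeping features with a mean FPKM above 0.1 in the libraries compared, by limma 3.58.1 (R 4.3.3) with a trended, moderated, two-sided test and Benjamini-Hochberg adjustment (threshold 0.05). P-values measure the spread between 3 geese per group. A group listed at 0 in all its libraries adds no spread, and a group near 0 adds little. The p-value then rests wholly or mainly on the other groups and can understate the spread between geese. A difference is given on these log2 scales, which understates changes of low values, and none is given for a pair of groups where all libraries of 1 are listed at 0; tests of a difference between tissues' responses include such groups. An intron was taken between the merged exons of all transcripts of a gene. Correlations used Pearson r and Spearman rho with exact permutation tests over 720 pairings; the smallest p they can give is 0.0014 for r and 0.0028 for rho.

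The members and the gene lists were chosen with earlier results of these data known. Named lncRNAs are those called for feeding, then up to 5 per direction and tissue among those with an unadjusted p under 0.05 and no overlap; the 5 largest tissue differences per direction; the 5 most abundant per tissue; the 5 highest and lowest mean correlations; and up to 4 per gene list; a few of these are not reported here. Tissues with the same number come from the same goose, and their deviations from group means correlated in all 18 pairs (r 0.096 to 0.47). Alternatives were other pseudocounts, no filter, median centring, a block on goose or number, and leaving out each goose. The feeding tests were also run on simulated lncRNA values with independent noise and planted changes. Those values had no shift between libraries, and the outcome is not given here.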

Additional observations from a re-analysis of the deposited data

Results flagged for a closer look

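The feeding response (high-intake minus control, on the log2(FPKM + 0.1) scale) differed between liver and abdominal adipose for 8 intronic lncRNAs, by limma's test of the difference itself with Benjamini-Hochberg adjustment. The difference, liver minus abdominal adipose, was 4.46 for XLOC_194467 in TMEM65 (adjusted p = 0.020), 2.75 for XLOC_306032 in NEDD4L (0.019), -2.52 for XLOC_022595 in ROBO2 (0.0055), -2.31 for XLOC_128137 in LDLRAD4 (0.039), 3.33 for XLOC_051317 in ARHGEF10 (0.0082), -1.63 for XLOC_103284 in PDGFA (0.033), 3.603 for XLOC_269259 in UBTD2 (0.020) and 4.14 for XLOC_074860 in PLEKHH1 (0.026). With the goose as a block the adjusted p of these 8 lay between 0.058 and 0.165, so none passed.

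Against subcutaneous adipose, the same test passed for 5 lncRNAs: -3.15 for XLOC_041643 in SSFA2 (adjusted p = 0.029), 3.27 for XLOC_306032 in NEDD4L (0.024), -2.52 for XLOC_022595 in ROBO2 (0.017), -2.08 for XLOC_103284 in PDGFA (0.026) and 4.91 for XLOC_074860 in PLEKHH1 (0.036). With the goose as a block only XLOC_306032 of these 5 passed (adjusted p = 0.048), and the other 4 had adjusted p between 0.051 and 0.066. XLOC_022595 was listed at 0 in all 12 adipose libraries and XLOC_194467 and XLOC_051317 in all 6 livers, so for these the value is the response of the other tissue. The tissue listed at 0 added no spread to these tests. XLOC_051317 and XLOC_269259 were listed at 0 in all high-intake abdominal adipose libraries, so the size of their values depends on the pseudocount. Those libraries added no spread to the test either.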

How the results depend on the processing

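The intronic lncRNAs called for feeding in liver numbered 3, but 0 with a pseudocount of 1, 1 without the filter on low values and 0 with the replicate number as a block (0 to 3 when a goose was left out). Those in abdominal adipose numbered 3 (1 to 3), and those in subcutaneous adipose 0, or 3 with the block (0 to 4). The genes that hold them numbered 4 in liver, 2 without the filter, 7 with median centring and 0 with the block (0 to 1), 0 in abdominal adipose (0 to 1), and 2 in subcutaneous adipose, 5 with a pseudocount of 0.1, 0 without the filter and 1 with centring (0 to 5). In the same order, liver counts over all lncRNAs were 10, 0, 2 and 0, and the block gave 4 in subcutaneous adipose. Over all genes the counts were 257, 110, 304 and 1 in liver and 283, 360, 6 and 38 in subcutaneous adipose. For feeding, equal numbers are different geese: their deviations correlated between -0.10 and 0.064, and 2, 3 and 0 of 6 libraries in liver, abdominal and subcutaneous adipose lay closest to their own number. Centring gave 114 calls in place of 202 between liver and abdominal adipose of high-intake geese (93 to 151 without a goose), 117 in place of 179 between liver and subcutaneous adipose (100 to 108), and in control geese 149 in place of 232 (128 to 208) and 78 in place of 174, where a pseudocount of 1 gave 112 (29 to 112). That pseudocount gave 279 of all 1424 lncRNAs. Between the adipose tissues of control geese centring gave 1 call and the goose block 6 (0 to 1), and in high-intake geese 0 calls were made under each alternative (0 to 0). Over all lncRNAs these control counts were 4 and 15. The interaction calls were 0 with the goose block in place of 8 (1 to 7), and for subcutaneous adipose 3 with a pseudocount of 1, 8 with centring and 2 with the goose block in place of 5 (0 to 11). Over all lncRNAs they were 3 with the block in place of 15, and for subcutaneous adipose 4, 22 and 8 in place of 11. The block changed no other count of intronic lncRNAs or their genes by over 1.5 times. Leaving out lncRNAs listed at 0 gave a median level of 0.290 FPKM in place of 0.131 in liver and 0.576 in place of 0.440 in abdominal adipose (0.122 to 0.140 and 0.409 to 0.457 without a goose; subcutaneous 0.377 to 0.449). The median r was 0.29 in place of 0.40 in liver with values centred within feeding groups (0.34 to 0.45) and 0.31 in place of 0.38 in abdominal adipose as Spearman rho (0.29 to 0.43; subcutaneous 0.0759 to 0.31). Requiring at least 50% of a locus inside the gene kept all 487, and requiring exon overlap left none, so it gave no value. With 3 geese per group and no counts, a lncRNA listed at 0 cannot be told from one below the reach of the library.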

Other observations

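MMD was listed at 0 in T3-SA and at 122 to 850 FPKM in the other 11 adipose libraries, so its value there is not read as a level. C1-L listed XLOC_347579, XLOC_347575 and XLOC_280452 at 0, lncRNAs that had at least 3.43, 0.177 and 0.247 FPKM in the other 5 livers.

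XLOC_291066, inside LOC106043964 (FAM47E-like), was among the most abundant intronic lncRNAs in subcutaneous adipose while its gene was barely listed. The lncRNA was at 13.5, 10.7 and 10.4 FPKM in T1-SA to T3-SA against 6.99, 2.16 and 4.23 FPKM in C1-SA to C3-SA, and the gene was at 0.202 FPKM or less in all 18 libraries.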
